A study of Mus musculus with 8 samples.

Results

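The Ras-ERK cascade is described here by 7 genes of the count table: the Ras genes *Hras* and *Nras*, the Raf genes *Araf* and *Braf*, the MEK genes *Map2k1* and *Map2k2*, and the ERK gene *Mapk3*. They were chosen by symbol, as members of the cascade, with earlier results of these data known. They are 7 of 54532 entries and 7 of the 14150 genes that passed the filter on low counts. RNAseq was performed on primary lung fibroblasts (pFBs) of female mice, with 4 wild type (WT) libraries and 4 libraries of homozygous (HOMO) transgenic mice that express human IGFBP5, an insulin-like growth factor-binding protein. Both groups are given as strain background C57/black and untreated, and the transgene is driven ubiquitously by the Ef1a1 promoter. The age and number of the mice are not given in the sources used here. The study's text speaks of variation between mice among the HOMO libraries, but the labels do not tie any library to an animal or culture. The p-values therefore measure the spread between these libraries, which may be technical, and n counts libraries. In RNA from many cells, fewer cells of a type and less RNA per cell cannot be told apart.

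The cascade carries signals from receptors at the cell surface to the nucleus. Exchange factors load Ras, a small GTPase held at the inner face of the plasma membrane by a lipid anchor, with GTP. Ras in this state recruits Raf kinases, Raf phosphorylates the MEK kinases, and MEK phosphorylates ERK, which then acts on cytoplasmic kinases and on transcription factors. In fibroblasts the cascade is known for its part in proliferation and in the response to growth factors. It works by phosphorylation, which transcript levels do not measure.

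The libraries, WT1 to WT4 and HOMO1 to HOMO4 in the labels, held between 17236521 and 31987790 counts. At this depth 3 counts corresponded to between 0.0908 and 0.172 CPM (read counts scaled to library size), and the lowest count of any of the 7 genes was 642. They were not equally far apart: the biological coefficient of variation was 7.65% between WT1 and WT2, 4.71% between HOMO1 and HOMO2 and 5.07% between HOMO3 and HOMO4, against 30.0 to 56.5% for other pairs of one genotype. The near-identical pairs still differed by more than counting error and were kept as separate libraries, and results are also given with them summed. The 8 fibroblast markers summed to 9925 to 14030 CPM in WT. In HOMO they summed to 13050 and 12460 CPM in HOMO1 and HOMO2 and to 22250 and 22320 CPM in HOMO3 and HOMO4. Epithelial markers reached at most 11.3 CPM and endothelial markers at most 3.91 CPM, with *Tie1* at 3 counts or fewer throughout. Leukocyte markers stood at 1817 CPM in WT3 and 1046 CPM in WT4, and at 98.7 and 128.0 CPM in WT1 and WT2. They were at 19.1 and 17.7 CPM in HOMO1 and HOMO2 and at 104.6 and 128.4 CPM in HOMO3 and HOMO4. The 4 mesothelial markers summed to 21.3 to 152.1 CPM in WT and 90.1 to 129.4 CPM in HOMO, and the 4 smooth muscle markers to 768.5 to 2705 CPM in WT and 198.1 to 1450 CPM in HOMO. WT3 also held 7130 counts of the mouse's own *Igfbp5*, against 112 to 225 in the other WT and 24 to 57 in the HOMO libraries. The human transgene was not analysed here.

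The promoters of the Ras pair are shown because the genes code for similar proteins, and *Hras* was downregulated whereas *Nras* did not pass the test. Sequences are those of RefSeq on GRCm38.p6 and run from 250 bases before to 50 bases after the annotated start, in the direction of transcription. Capitals mark GC boxes, the letters GGGCGG on either strand, where Sp family factors can bind. The *Hras* window lies at chr7:141193955-141194254 on the minus strand and the *Nras* window at chr3:103058035-103058334 on the plus strand.
Hras: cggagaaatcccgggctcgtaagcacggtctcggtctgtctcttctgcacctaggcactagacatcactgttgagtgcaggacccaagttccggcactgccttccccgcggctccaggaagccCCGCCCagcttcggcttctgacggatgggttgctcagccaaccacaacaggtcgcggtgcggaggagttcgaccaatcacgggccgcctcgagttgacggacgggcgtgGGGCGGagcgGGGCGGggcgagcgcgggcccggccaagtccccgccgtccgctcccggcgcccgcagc
Nras: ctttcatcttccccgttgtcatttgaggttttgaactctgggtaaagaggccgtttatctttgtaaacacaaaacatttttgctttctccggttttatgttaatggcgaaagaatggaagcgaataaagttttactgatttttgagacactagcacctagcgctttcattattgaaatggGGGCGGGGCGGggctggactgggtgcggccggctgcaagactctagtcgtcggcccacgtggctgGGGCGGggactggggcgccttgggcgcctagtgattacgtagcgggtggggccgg
The *Hras* window was 69.0% G and C with 34 CpG dinucleotides, and the *Nras* window 52.3% with 19, against medians of 52.7% and 7 over 27025 promoters of the same length. Both windows held 3 GC boxes, of which a pair in *Nras* overlap by 1 base, and 35.9% of all promoters held at least 1. *Hras* also had 1 CAAT box (CCAAT), found in 37.9% of promoters, and *Nras* 0. Of the other members, *Map2k1* had 4 GC boxes, *Map2k2* 2, *Braf* 1 and *Araf* 0. The palindrome TGACGTCA, a cAMP response element, occurred at 2 positions in *Braf*, in none of the other 5 windows and in 1.88% of all promoters. An ETS core (CCGGAAG, 9.12% of all promoters) and a TATA box (TATAAA, 14.2%) were absent from these 6 windows on both strands. A match is a description of letters and not a binding site.

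Expression was compared between HOMO and WT with edgeR's two-sided quasi-likelihood test, with Benjamini-Hochberg adjustment over all 14150 tested genes. A gene was called differentially expressed (DEG) where its log2 fold change exceeded 0.6 in size at an adjusted p under 0.05. *Hras* and *Mapk3* were downregulated in HOMO pFBs, and the other 5 members did not pass the test. *Hras* fell by 61.7% and *Mapk3* by 42.0%, and in both genes every HOMO library was below every WT library. Thus 2 of 7 members (28.6%) were DEGs, both lower in HOMO and 0 higher, against 12.1% of all tested genes called in either direction and 6.18% called lower. A lack of overlap between genotypes was seen for 2 of 7 members (28.6%) and for 27.3% of all tested genes, so that this share alone does not set the members apart. The median log2 fold change was −0.18 over the 7 members and −0.04 over all tested genes. DESeq2 and limma-voom also called 2 members each, against 2913 of 27324 and 3573 of 14150 of all genes they tested. When the near-identical libraries were summed, edgeR called 0 of 7 members, with 2 at an unadjusted p under 0.05, and DESeq2 called 1, *Hras*. Over all genes edgeR then called 0 of 16130, with 2057 at an unadjusted p under 0.05, and DESeq2 719 of 27324.

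**Figure D1:**
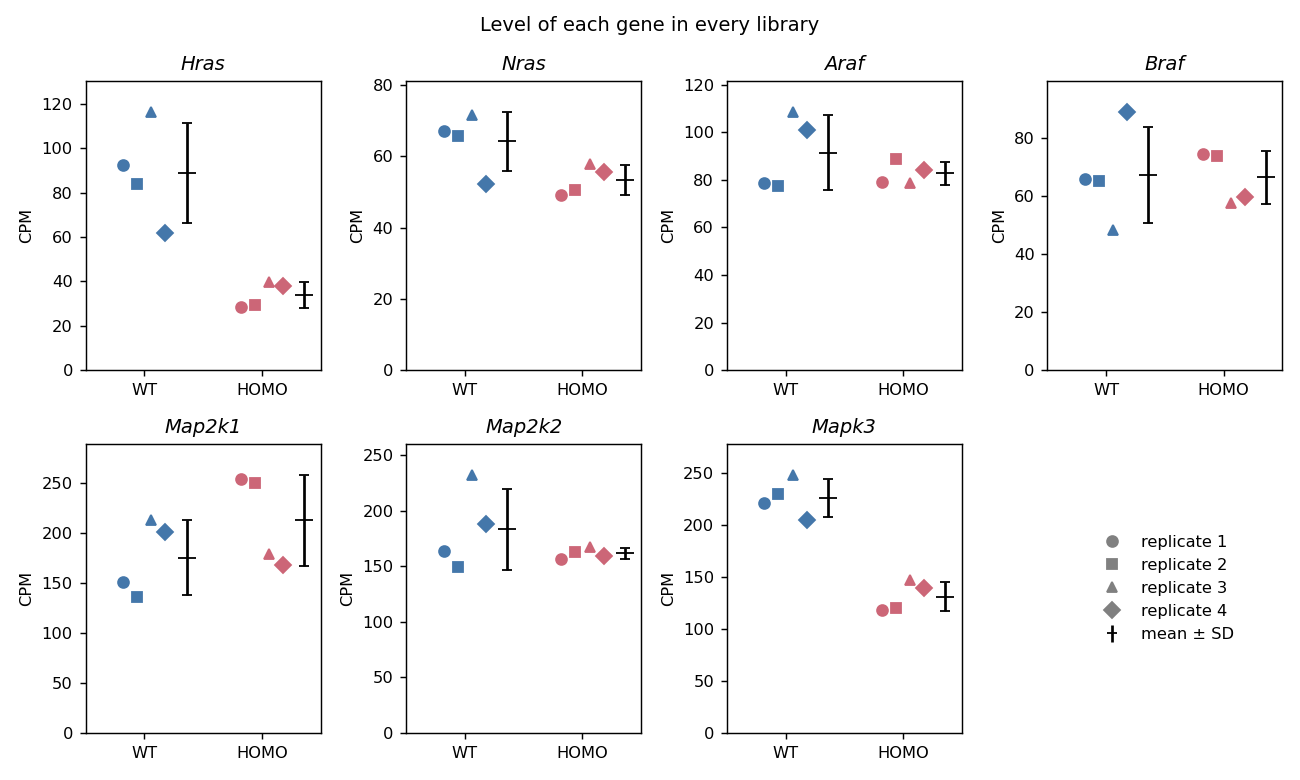
CPM of each of the 7 genes (vertical axis, from 0) in the 4 WT (blue) and 4 HOMO (red) libraries, with replicate numbers as symbols and the mean ± SD as bars. *Hras* and *Mapk3* show no overlap between genotypes, whereas the points of the other 5 genes do overlap.

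*Hras* encodes a small GTPase at the top of the cascade and lies on chromosome 7 from 141189105 to 141194005 on the minus strand (GRCm38). It was measured at 92.6, 84.1, 116.3 and 61.6 CPM in WT1 to WT4, and at 28.6, 29.4, 39.7 and 38.1 CPM in HOMO1 to HOMO4. The lowest WT library, WT4, stood above the highest HOMO library, HOMO3. Mean levels were 88.7 ± 22.6 CPM in WT and 34.0 ± 5.77 CPM in HOMO (SD, n = 4 each). The log2 fold change was −1.38 (SE 0.21, 95% interval −1.87 to −0.90, adjusted p = 0.00742 by edgeR), and 5.86% of all tested genes had a log2 fold change as low or lower. With near-identical libraries summed it was −1.36 with an adjusted p of 0.281 in edgeR and −1.37 with an adjusted p of 0.0359 in DESeq2. Within HOMO, the pair HOMO1 and HOMO2 was 0.42 below HOMO3 and HOMO4 on the log2 scale, and within WT, WT3 was 0.57 above and WT4 −0.65 relative to the mean of the other WT libraries.

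*Nras* encodes the other Ras protein of the set and lies on chromosome 3 from 103058285 to 103067914 on the plus strand. Its levels were 67.1, 65.8, 71.5 and 52.3 CPM in WT1 to WT4 and 49.3, 50.5, 57.9 and 55.6 CPM in HOMO1 to HOMO4. WT4 was within the range of the HOMO libraries, and the other 3 WT libraries were above it. The log2 fold change was −0.27 (SE 0.14, 95% interval −0.57 to 0.04, adjusted p = 0.209 by edgeR), and this gene was not a DEG. The limma-voom test with sample weights gave −0.28 with an adjusted p of 0.00914, which still missed the fold threshold.

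*Araf* and *Braf* encode serine/threonine kinases that bind activated Ras. *Araf* is on chromosome X from 20797814 to 20860519 on the plus strand, and *Braf* on chromosome 6 from 39603237 to 39725463 on the minus strand. In WT1 to WT4, *Araf* was at 78.7, 77.6, 108.5 and 101.0 CPM, and in HOMO1 to HOMO4 it was at 79.0, 88.7, 78.8 and 84.1 CPM. All 4 HOMO values fell within the WT range. The log2 fold change of *Araf* was −0.15 (SE 0.14, 95% interval −0.47 to 0.18, adjusted p = 0.524 by edgeR). *Braf* was at 65.9, 65.2, 48.5 and 89.0 CPM in WT and at 74.6, 74.0, 57.6 and 59.8 CPM in HOMO. Its lowest and highest values were both WT libraries, WT3 and WT4, and the log2 fold change was −0.01 (SE 0.20, 95% interval −0.46 to 0.43, adjusted p = 0.968 by edgeR). The exons of *Araf* share 9 bases with *Syn1* and those of *Braf* share 146 bases (1.05%) with *Ndufb2*, both on the opposite strand. Reads over these bases cannot be told apart if the counting ignored strand, which is not stated in the sources used here.

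*Map2k1* and *Map2k2* encode MEK1 and MEK2, the dual-specificity kinases that activate ERK. *Map2k1* is on chromosome 9 from 64185770 to 64253631 on the minus strand and *Map2k2* on chromosome 10 from 81105915 to 81133975 on the plus strand. *Map2k1* was at 150.4, 136.2, 212.4 and 201.1 CPM in WT and at 253.8, 249.3, 178.2 and 168.0 CPM in HOMO. HOMO1 and HOMO2 were above all WT libraries, while HOMO3 and HOMO4 were inside the WT range, a gap of 0.54 on the log2 scale between the HOMO pairs. The log2 fold change of *Map2k1* was 0.28 (SE 0.21, 95% interval −0.19 to 0.75, adjusted p = 0.387 by edgeR), with an adjusted p of 0.0157 but a fold change below the threshold in limma-voom with sample weights. *Map2k2* was at 163.7, 149.4, 232.5 and 188.0 CPM in WT and at 156.3, 163.2, 167.7 and 159.6 CPM in HOMO. The HOMO libraries lay close together, with an SD of 4.88 CPM against 36.4 CPM in WT, and inside the WT range. For *Map2k2* the log2 fold change was −0.18 (SE 0.15, 95% interval −0.53 to 0.17, adjusted p = 0.446 by edgeR).

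*Mapk3* encodes ERK1, a kinase at the end of the cascade, and lies on chromosome 7 from 126759601 to 126765819 on the plus strand. Its levels were 221.3, 230.5, 248.6 and 204.7 CPM in WT1 to WT4 and 118.8, 119.8, 147.5 and 139.3 CPM in HOMO1 to HOMO4. The gap between the lowest WT library, WT4, and the highest HOMO library, HOMO3, was wider than the spread within either genotype, with means of 226.3 ± 18.3 CPM in WT and 131.3 ± 14.3 CPM in HOMO (SD, n = 4 each). The log2 fold change was −0.79 (SE 0.13, 95% interval −1.08 to −0.49, adjusted p = 0.00855 by edgeR), and 12.9% of all tested genes were as low or lower. With near-identical libraries summed it was −0.77 in edgeR (adjusted p = 0.34) and −0.78 in DESeq2 (adjusted p = 0.154), so that the call was lost in both. HOMO1 and HOMO2 were 0.26 below HOMO3 and HOMO4 on the log2 scale, the same order of the pairs as for *Hras*.

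Several other measures also differed between genotypes or between libraries of a genotype. The 1047 tested genes of chromosome 7, which holds *Hras* and *Mapk3*, had a median log2 fold change of −0.29, and their median level in WT3 stood 0.36 above the other WT libraries. Without WT3 the median of chromosome 7 was −0.17, *Hras* was at −1.23 and *Mapk3* at −0.74, each with an adjusted p of 0.00678. The 683 tested genes of chromosome 3, which holds *Nras*, had a median of −0.23, and −0.11 without WT3, where *Nras* was at −0.21. For the chromosomes of the other 4 members the median lay between −0.11 and 0.12. Medians were taken only for chromosomes that hold a member, and the part of the chromosome in the result was not tested. Leukocyte markers were high in WT3 and WT4, where *Hras* had its highest and its lowest WT level. The part of these markers in the result was not tested. Smooth muscle markers were at 198.1 and 205.2 CPM in HOMO1 and HOMO2 and at 1450 and 1426 CPM in HOMO3 and HOMO4. Fibroblast, leukocyte, epithelial and endothelial markers were also lower in HOMO1 and HOMO2 than in HOMO3 and HOMO4, and mesothelial markers were higher. The part of any of these markers in the difference between the HOMO pairs was not tested.

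**Figure D2:**
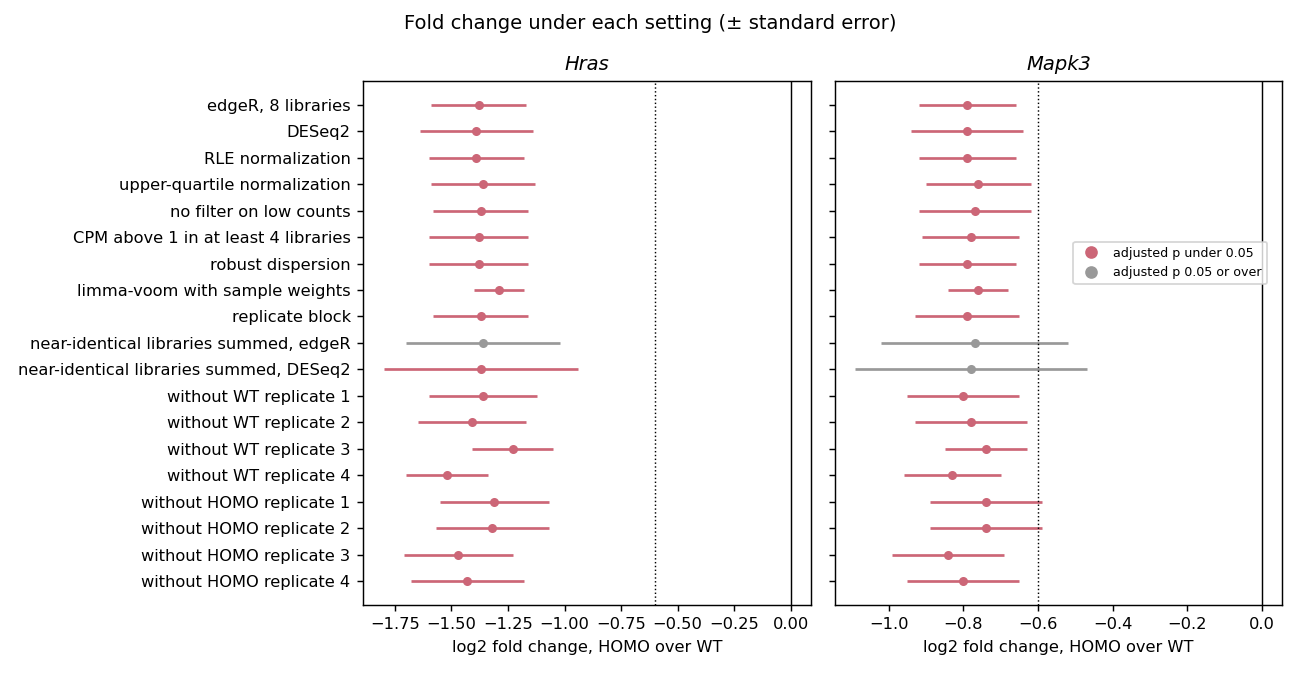
Log2 fold change of HOMO over WT with its standard error for *Hras* and *Mapk3* (horizontal axes, log2 scale) under the edgeR test of 8 libraries and 18 other settings, red where the adjusted p was under 0.05. All values lie below the dotted fold threshold at −0.6, between −1.52 and −1.23 for *Hras* and between −0.84 and −0.74 for *Mapk3*. Grey points are near-identical libraries summed in edgeR for *Hras*, and summed in edgeR and in DESeq2 for *Mapk3*.

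Levels of different genes were compared as CPM per kilobase of each gene's longest transcript. In WT, *Mapk3* had the highest level of the 7 genes, at 125.7 ± 10.2 CPM per kilobase, followed by *Map2k2* at 76.3 ± 15.1 and *Map2k1* at 71.8 ± 15.3, which overlapped each other. *Araf* at 32.0 ± 5.49 and *Hras* at 31.3 ± 8.0 were next and also overlapped, *Nras* was at 14.4 ± 1.85, and *Braf* was lowest at 6.90 ± 1.71 CPM per kilobase (SD, n = 4). In HOMO the order was *Map2k1* at 87.2 ± 18.7, *Mapk3* at 73.0 ± 7.95 and *Map2k2* at 67.2 ± 2.03 CPM per kilobase, 3 genes whose libraries overlapped on this length. *Araf* followed at 29.0 ± 1.64, then *Hras* at 12.0 ± 2.04 and *Nras* at 11.9 ± 0.916, which overlapped, and *Braf* at 6.83 ± 0.930 CPM per kilobase. With the union of all exons as length, the WT level of *Map2k1* (51.6) was above that of *Map2k2* (32.4) and that of *Hras* (23.7) above that of *Araf* (14.0), so the order within these pairs depends on the length used. In HOMO the union of exons placed *Map2k2*, at 27.6 to 29.6 CPM per kilobase, below *Mapk3* at 52.6 to 65.4 and *Map2k1* at 49.5 to 74.8, with no overlap.

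The balance within the Ras, Raf and MEK pairs was described as the share of each gene in the CPM per kilobase of the pair. *Hras* made up 68.6, 66.9, 72.0 and 65.0% of the *Hras* and *Nras* sum in WT1 to WT4, and 47.8, 47.9, 52.0 and 52.0% in HOMO1 to HOMO4. The genotypes did not overlap, and *Hras* was above *Nras* in all 4 WT libraries but close to equal with it in the HOMO libraries. Mean shares of *Hras* were 68.1 ± 2.96% in WT and 49.9 ± 2.39% in HOMO (SD, n = 4 each). The sum of the Ras pair was 45.7 ± 9.75 CPM per kilobase in WT and 23.9 ± 2.95 in HOMO, also without overlap. Both the share and the sum contain *Hras*, so they largely restate its lower level and are not separate results. With the union of exons as length, the *Hras* share was 65.9% in WT and 47.4% in HOMO, again with no overlap.

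Shares within the Raf and MEK pairs overlapped between genotypes. *Araf* made up 82.1 ± 4.23% of the Raf pair in WT and 80.9 ± 2.04% in HOMO, with WT3 highest at 88.4%. *Map2k1* was 47.4 to 51.4% of the MEK pair in WT, against 61.6 and 60.1% in HOMO1 and HOMO2 and 51.2 and 51.0% in HOMO3 and HOMO4. With the union of exons as length, the *Map2k1* share was 60.3 to 64.1% in WT and 63.7 to 73.1% in HOMO, so that the balance of this pair depends on the length used, with overlap of the genotypes under both. The summed level was 38.9 ± 5.60 and 35.8 ± 2.13 CPM per kilobase for the Raf pair and 148.1 ± 29.9 and 154.4 ± 17.9 for the MEK pair, in WT and HOMO. Differences between the genes of a pair in their response to genotype were not tested, and shares within a pair are not independent of each other.

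**Figure D3:**
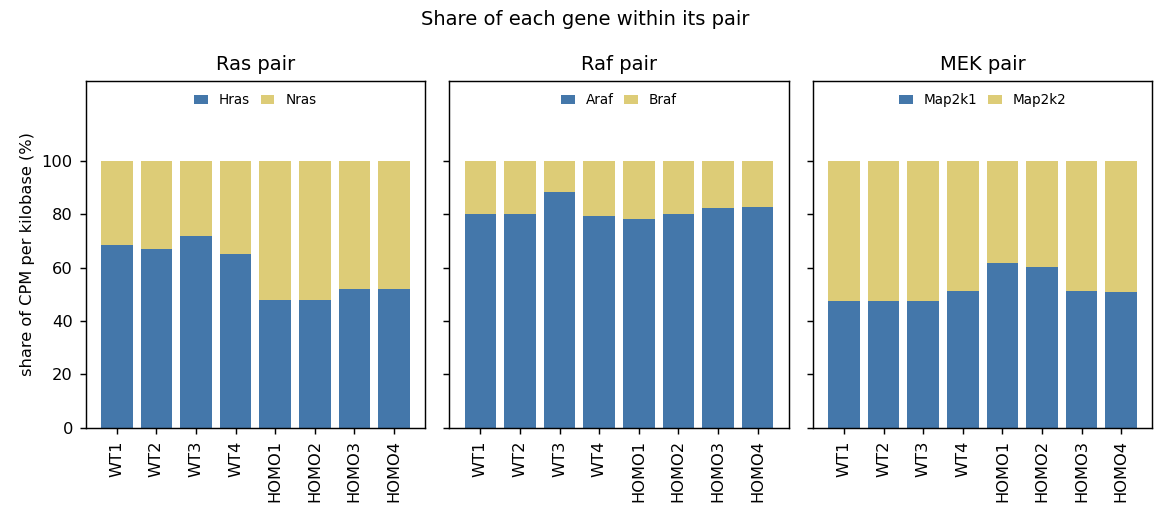
Share of each gene in its pair (vertical axis, percent of CPM per kilobase of longest transcript) in the 8 libraries, for the Ras, Raf and MEK pairs. The *Hras* share is 65.0 to 72.0% in WT and 47.8 to 52.0% in HOMO, while shares in the Raf and MEK pairs overlap.

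Beyond the 7 members, 74 genes around the cascade were listed by role, and 68 of them were tested. Of these, 4 were upregulated and 4 downregulated (11.8%, against 12.1% of all tested genes), and 60 did not pass the test. Their median log2 fold change was 0.01. DESeq2 and limma-voom each called 12 of the listed genes, against 2913 of 27324 and 3573 of 14150 of all genes they tested. The edgeR count fell to 2 without HOMO1, 2 without HOMO2, 4 without HOMO3, 5 without HOMO4 and 5 without WT2, and rose to 13 without WT3. With near-identical libraries summed, edgeR called 0 of them, with 11 at an unadjusted p under 0.05, and DESeq2 2. Over all genes edgeR then had 2057 of 16130 at an unadjusted p under 0.05, and DESeq2 called 719 of 27324.

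Of 3 Ras-related genes, *Rras2*, which encodes the GTPase TC21, was the single DEG by edgeR (33.3%, against 12.1% of all tested genes). DESeq2 called 2 of the 3 and limma-voom 1. *Rras2* was at 319.4, 302.5, 326.7 and 355.0 CPM in WT1 to WT4 and at 73.9, 75.2, 103.5 and 101.7 CPM in HOMO1 to HOMO4. All HOMO libraries were far below all WT libraries, and the log2 fold change was −1.88 (SE 0.16, adjusted p = 0.000721 by edgeR). *Rras2* lies on chromosome 7, as do *Hras*, *Mapk3*, *Rras*, *Ccnd1* and further genes of the lists. The part of this chromosome in their log2 fold changes was not tested. *Rras*, another relative, had a log2 fold change of −0.96 (SE 0.33, adjusted p = 0.0849 by edgeR) with WT3 and WT4 at 150.9 and 136.8 CPM and all other libraries between 48.5 and 63.4 CPM. *Mras* was at −0.22 with an adjusted p of 0.382 by edgeR.

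Upstream of Ras, 10 of 13 adaptors and exchange factors were tested, with a median of −0.17. *Gab1*, a docking protein that links receptors to Ras activation, was the DEG among them and rose from 42.1 ± 3.87 to 128.0 ± 19.6 CPM (log2 fold change 1.60, SE 0.15, adjusted p = 0.00111 by edgeR). Of 10 GTPase-activating proteins, which switch Ras off, 9 were tested. By edgeR 0 of these were called, against 12.1% of all tested genes, while DESeq2 called 0 and limma-voom 1. Of the 9, 4 had an unadjusted p under 0.05 by edgeR, as did 4573 of all 14150 tested genes. The median log2 fold change of this list was 0.09. *Rasa3*, named after its value was seen, had an adjusted p of 0.0464 by edgeR at a log2 fold change of −0.58, short of the fold threshold.

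Ras proteins reach the membrane through lipid groups added to their C terminus, and 2 of 9 tested genes of that route (22.2%) were DEGs, both lower in HOMO, against 12.1% of all tested genes called and 6.18% called lower. *Icmt*, the enzyme that methylates the prenylated cysteine, was at 70.3, 67.9, 72.2 and 105.6 CPM in WT and 44.2, 44.6, 44.2 and 47.9 CPM in HOMO (log2 fold change −0.80, SE 0.16, adjusted p = 0.0179 by edgeR). *Zdhhc9*, which palmitoylates Hras and Nras proteins, was at 50.1, 51.6, 61.6 and 78.5 CPM in WT and 34.7, 34.7, 39.5 and 44.9 CPM in HOMO (log2 fold change −0.65, SE 0.18, adjusted p = 0.0437 by edgeR). For both genes the HOMO libraries were below every WT library, a lack of overlap seen in 27.3% of all tested genes. The median of this list was −0.32, with 7 of 9 genes not called, and 2 and 0 genes were called by DESeq2 and limma-voom.

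Of 14 tested scaffolds and modulators of Raf, MEK and ERK, with a median of −0.18, *Lztr1* was the DEG (7.14%, against 12.1% of all tested genes). It encodes an adaptor that directs Ras proteins to ubiquitination and rose from 130.5 ± 17.2 to 213.1 ± 18.9 CPM (log2 fold change 0.71, SE 0.14, adjusted p = 0.0148 by edgeR). Among 13 kinases and transcription factors that ERK acts on, *Rps6ka5*, which encodes the kinase MSK1, and *Rps6ka6*, which encodes RSK4, were upregulated. These DEGs were 15.4% of their list, against 12.1% of all tested genes. *Rps6ka5* was at 3.97 ± 1.38 CPM in WT and 10.2 ± 3.26 in HOMO (log2 fold change 1.36, SE 0.34, adjusted p = 0.0361 by edgeR). *Rps6ka6* was at 1.68 ± 0.655 and 5.44 ± 0.0999 CPM (log2 fold change 1.70, SE 0.35, adjusted p = 0.0194 by edgeR). Both are low in level, and the median of their list was 0.26. Of the scaffolds and modulators DESeq2 called 2 and limma-voom 3, and of the kinases and transcription factors each called 3.

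**Figure D4:**
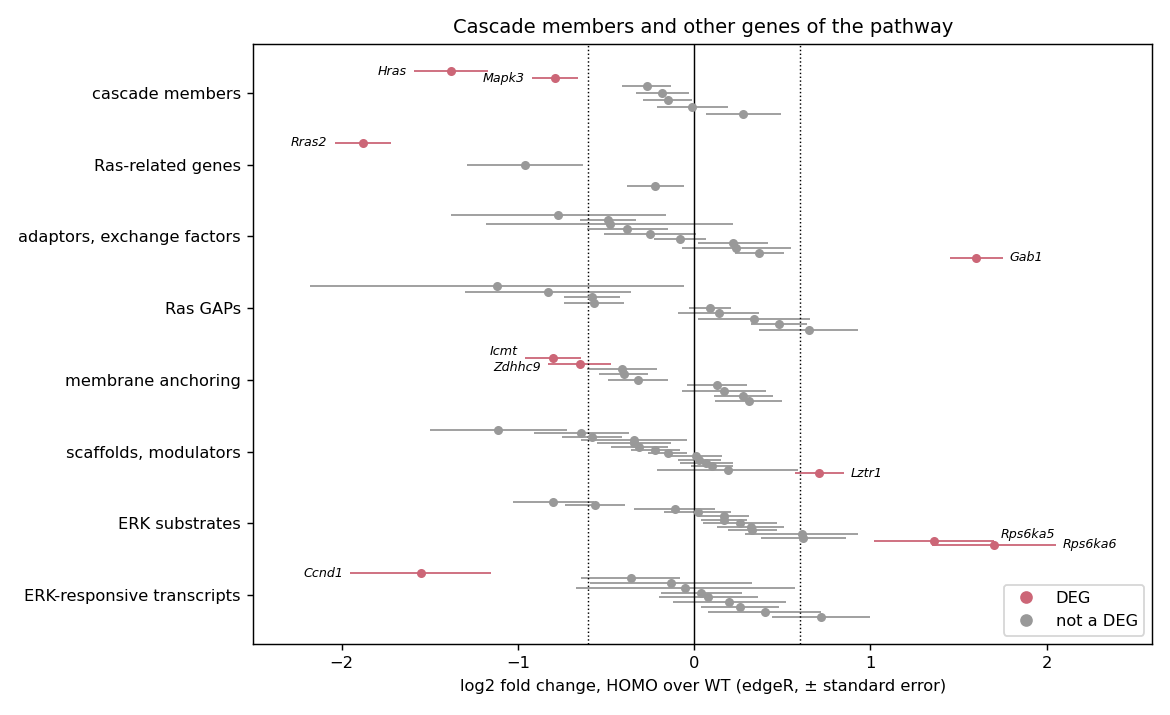
Log2 fold change of HOMO over WT with its standard error (horizontal axis) for the 7 members and 68 other tested genes by role, with DEGs in red and named, and dotted lines at the fold threshold of 0.6 in either direction. The DEGs *Hras*, *Mapk3*, *Rras2*, *Icmt*, *Zdhhc9* and *Ccnd1* lie to the left and *Gab1*, *Lztr1*, *Rps6ka5* and *Rps6ka6* to the right.

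Transcripts known to follow ERK activity were examined in a list of 10 genes, all tested, with a median log2 fold change of 0.06. By edgeR 1 of the 10 was called, lower in HOMO, against 12.1% of all tested genes called and 6.18% called lower. Of this list DESeq2 called 1 and limma-voom 2. *Ccnd1*, the cyclin of the G1 phase, was the single DEG by edgeR. It was at 409.3, 357.0, 147.9 and 283.3 CPM in WT and 68.2, 58.5, 144.1 and 139.2 CPM in HOMO. The genotypes only just failed to overlap, with WT3 next to HOMO3, and the log2 fold change was −1.55 (SE 0.40, adjusted p = 0.0376 by edgeR). *Phlda1* was at 0.72 (adjusted p = 0.111 by edgeR) and overlapped. The Sprouty genes *Spry2* and *Spry4*, feedback inhibitors of the cascade, were at 0.08 and 0.26, and the ERK phosphatase genes *Dusp4* and *Dusp6* at −0.05 and 0.20, with adjusted p-values between 0.437 and 0.964. *Epha2*, *Epha4*, *Etv4* and *Etv5* were at 0.40, −0.36, −0.13 and 0.04, with adjusted p-values between 0.408 and 0.933. WT3 held the lowest WT value of *Dusp4*, at 7.80 CPM against 94.2 to 122.1 CPM in the other WT libraries, and of *Dusp6*, at 26.1 CPM against 46.3 to 74.3 CPM. The standard error of *Dusp4* was accordingly 0.62 on the log2 scale, with a 95% interval from −1.47 to 1.37.

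The genes most like each member in profile were found by the root mean square difference of centred log2 CPM over the 8 libraries. For *Hras* they were *Akr1b3* (0.0826) and *Arrdc3* (0.111), with log2 fold changes of −1.24 and −1.33. For *Mapk3* they were *Ttyh2* (0.0621) and *Bccip* (0.0761), at −0.82 and −0.84. *Nras* was nearest to *Emc6* (0.0460) and *Eif2s2* (0.0468), *Araf* to *Adprhl2* (0.0339) and *Cop1* (0.0473), and *Braf* to *Zfc3h1* (0.0662) and *Stxbp4* (0.0688). *Map2k1* was nearest to *Pex6* (0.0708) and *Vgll3* (0.0821), and *Map2k2* to *Vapa* (0.0486) and *Cop1* (0.0507). Since members were matched to genes by the same libraries, the fold changes of each match follow from the matching.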

How the data were processed

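The deposited values are raw read counts per gene, which the authors made with fastp (trimming), STAR (alignment to mm10) and featureCounts (counting). Versions, annotation and strand setting are not given in the sources used here, and the meaning of the label "outlierout" on the deposited counts is not stated. All 8 libraries were used and 0 columns were left aside. The 7 members, the gene lists and the tests were chosen with earlier results of these data known.

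Counts were analysed with R 4.3.3 and edgeR 4.0.16 (TMM, filterByExpr by genotype, quasi-likelihood F test, no covariate), with limma 3.58.1 and DESeq2 1.42.0 as alternatives. Python 3.11.15, numpy 2.4.6, pandas 2.3.3 and matplotlib 3.10.9 made tables and figures. Each standard error is the size of the log2 fold change over the root of its F statistic, and intervals use 8.75 degrees of freedom. CPM used TMM-scaled library sizes, and log2 CPM a prior count of 2. Positions and lengths are from GENCODE M21, and promoters from RefSeq, matched by symbol for 6 of 7 members. No 75-base stretch of a member's longest transcript occurred in another gene's transcripts, except 0.746% of those of *Braf*, in *Ndufb2*. The fits were tested on simulated counts of independent libraries with the same dispersion for every gene. Near-identical pairs were not simulated, so that test does not cover them.

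Genes named were the members, the DEGs of the lists, Ras-related and ERK-responsive transcripts, exon-sharing genes, the nearest profiles and a defining marker near 0 (*Tie1*). *Igfbp5* and *Rasa3* fall outside this rule and were chosen after their values were seen. Some listed genes are not reported here and do not enter the list counts. Alternatives were other tests (DESeq2, limma-voom with sample weights), other scaling (upper-quartile, RLE), other filters (none, or 4 libraries with CPM above 1), robust dispersion, a replicate block, summed near-identical libraries, no fold threshold and leaving out each library.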

Additional observations from a re-analysis of the deposited data

How the results depend on the processing

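*Hras* and *Mapk3* kept their direction in all 19 alternatives, from −1.52 to −1.23 (adjusted p from 1.34e-06 to 0.281) and from −0.84 to −0.74 (6.92e-06 to 0.34). The count of 2 members called stood in 17 of them, including all 8 that leave out a library. Leaving out a library of a near-identical pair kept its near copy in the fit, so those fits say little about stability. With near-identical libraries summed, edgeR called 0 members, with *Hras* at −1.36 and *Mapk3* at −0.77, and DESeq2 1, with *Mapk3* at −0.78. Over all genes edgeR then called 0 (2057 at an unadjusted p under 0.05) and DESeq2 719, against 1716 in the main comparison. This alternative leaves 3 WT and 2 HOMO samples. Over all genes DESeq2 called 2913, limma-voom 3573 and the block 947, and leaving out a library gave 507 (without HOMO1) to 2192 (without WT3). Directions turned only for members that were not DEGs: in limma-voom *Araf* was at 0.07 and *Map2k2* at 0.08, and *Braf* was at 0.02 with upper-quartile normalization, 0.01 with the block, and between −0.14 and 0.15 without 1 library. The 8 pathway genes called became 12 with DESeq2 and 12 with limma-voom. They became 3 with the block, 0 and 2 with summed libraries in edgeR and DESeq2, and 2 to 13 without 1 library. Replicate numbers did not pair the libraries: deviations of same-numbered libraries correlated at −0.09, −0.04, 0.01 and −0.12. With the replicate number as a block, *Hras* was at −1.37 (adjusted p = 0.0295) and *Mapk3* at −0.79 (0.039), and 2 members were called. The cause of these changes was not tested. The part of depth was not tested, and the lowest count of any member was 642.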
